A study of Mus musculus with 24 samples.

Results

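The 52 genes described here encode the machinery of mitosis: the kinases and cyclins that start it, the spindle and its motors, the kinetochores, the chromosomal passenger complex, the condensins and the proteins that divide the cell. They were taken from a list of symbols, not by their values, and found through their Ensembl IDs in GENCODE release M21 among the 39056 genes of the count table. They were followed in 4 subsets of CD4 T cells from the lupus-prone hybrid strain NZBWF1/j. All mice were female and 23 weeks old at the start. Treated mice received intraperitoneal recombinant mouse OX40L and JAG1, each at 2 mg/kg, in 3 weekly doses, and control mice of the same age and sex received PBS. Cells were sorted in week 26. OX40L is the ligand of the costimulatory receptor OX40, and JAG1 (Jagged-1) is a ligand of Notch receptors. The gates were CD4+CXCR5-GITR+ for regulatory (Treg) cells, CD4+CXCR5-GITR- for conventional (Tconv) cells, CD4+CXCR5+PD1Hi GITRHi for follicular regulatory (TFR) cells and CD4+CXCR5+PD1Hi GITR-/low for follicular helper (TFH) cells. Each subset and treatment had 3 libraries of total RNA, 24 in all.

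Most genes of mitosis are transcribed in a wave late in the cell cycle and are close to silent in resting cells, so their transcripts mark cycling cells in a bulk sample. Cyclins A and B with Cdk1 and Plk1 start mitosis, the spindle checkpoint holds anaphase until every chromosome is attached, and the APC/C ubiquitin ligase then destroys the cyclins. Regulatory T cells are known to divide more often in the resting state than conventional CD4 T cells, and follicular T cells arise from activated, dividing precursors. In bulk libraries, fewer cycling cells and less RNA of a gene per cell cannot be told apart.

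Promoters of mitosis genes are known for 2 sequence elements, the CHR (TTTGAA), which is bound by the MuvB core of the DREAM complex, and the CCAAT box, which is bound by NF-Y. RefSeq promoter windows of GRCm38.p6, from 250 bases before to 50 bases after the annotated start (300 bases), were found for 44 of the 52 genes and not for Aurkb, Ccna2, Cdc25c, Foxm1, Incenp, Kif20a, Smc4 and Tpx2. TTTGAA or its reverse complement TTCAAA was present in 34 of the 44 (77.3%), against 20.2% of all 27025 genes with a window. It lay within 50 bases of the start in 30 (68.2%), against 5.72% of all genes. CCAAT or its reverse complement ATTGG was present in 33 (75.0%), against 41.1% of all genes, and at least 2 copies were present in 23 (52.3%), against 13.3%. Both elements were present in 29 (65.9%), against 7.97% of all genes. The windows of 6 genes on which the results below turn are printed 5′ to 3′ on the gene's own strand, with every match to either motif in capitals. Top2a and Mki67 differed between treated and control mice in all 4 subsets, Cdk1 is the kinase that drives mitosis, Cit had no read in control TFH cells, and Kif23 and Kif20b were the kinesin genes with lower levels after treatment.
Top2a (chr11:99024140-99024439, minus strand): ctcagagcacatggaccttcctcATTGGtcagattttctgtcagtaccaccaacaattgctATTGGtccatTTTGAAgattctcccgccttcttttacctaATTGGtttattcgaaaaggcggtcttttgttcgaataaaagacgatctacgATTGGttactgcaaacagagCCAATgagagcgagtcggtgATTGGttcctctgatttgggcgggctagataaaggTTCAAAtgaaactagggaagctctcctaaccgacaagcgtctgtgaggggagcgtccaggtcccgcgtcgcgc
Mki67 (chr7:135716330-135716629, minus strand): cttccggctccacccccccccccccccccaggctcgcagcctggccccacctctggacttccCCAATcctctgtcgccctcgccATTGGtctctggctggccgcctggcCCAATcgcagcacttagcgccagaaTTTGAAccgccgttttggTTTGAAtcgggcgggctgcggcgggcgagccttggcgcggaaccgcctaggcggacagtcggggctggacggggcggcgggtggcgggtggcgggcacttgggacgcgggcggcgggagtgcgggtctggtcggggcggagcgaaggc
Cdk1 (chr10:69352863-69353162, minus strand): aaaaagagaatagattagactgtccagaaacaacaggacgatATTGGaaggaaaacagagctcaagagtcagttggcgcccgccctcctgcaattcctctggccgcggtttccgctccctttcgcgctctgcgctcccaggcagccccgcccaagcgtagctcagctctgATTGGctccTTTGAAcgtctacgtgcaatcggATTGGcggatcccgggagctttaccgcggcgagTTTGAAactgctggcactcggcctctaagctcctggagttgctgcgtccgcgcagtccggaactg
Cit (chr5:115845406-115845705, plus strand): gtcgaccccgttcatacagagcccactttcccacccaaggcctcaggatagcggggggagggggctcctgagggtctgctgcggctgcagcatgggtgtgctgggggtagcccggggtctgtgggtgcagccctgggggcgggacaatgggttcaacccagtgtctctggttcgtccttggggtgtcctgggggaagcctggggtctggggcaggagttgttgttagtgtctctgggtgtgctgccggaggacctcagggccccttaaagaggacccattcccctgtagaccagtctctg
Kif23 (chr9:61946750-61947049, minus strand): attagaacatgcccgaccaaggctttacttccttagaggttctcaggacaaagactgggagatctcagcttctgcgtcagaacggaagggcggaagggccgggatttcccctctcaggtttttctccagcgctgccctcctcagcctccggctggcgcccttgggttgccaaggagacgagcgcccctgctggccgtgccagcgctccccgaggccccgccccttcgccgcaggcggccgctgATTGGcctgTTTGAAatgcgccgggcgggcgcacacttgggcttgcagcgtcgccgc
Kif20b (chr19:34922108-34922407, plus strand): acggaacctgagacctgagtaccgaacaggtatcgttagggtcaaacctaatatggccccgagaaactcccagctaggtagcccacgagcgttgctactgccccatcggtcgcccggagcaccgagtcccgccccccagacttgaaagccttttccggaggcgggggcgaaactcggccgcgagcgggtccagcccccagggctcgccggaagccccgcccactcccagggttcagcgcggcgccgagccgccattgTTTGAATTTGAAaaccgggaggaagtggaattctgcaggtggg
The Top2a window held 6 CCAAT and 2 TTTGAA matches, those of Mki67 and Cdk1 held 3 and 2 each, and the Kif23 window held 1 of each within 7 bases of the start. The Kif20b window held 2 TTTGAA matches and no CCAAT, and the Cit window held neither. The whole Cit window lies downstream of the gene's start in GENCODE M21 (chr5:115845278), and no window at that start was searched. Among the genes that were higher in treated Treg cells, 25 of 32 with a window held TTTGAA (78.1%), against 9 of the 12 with a window that were not called there (75.0%). A match is a run of letters and not a measured binding site.

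**Figure D1:**
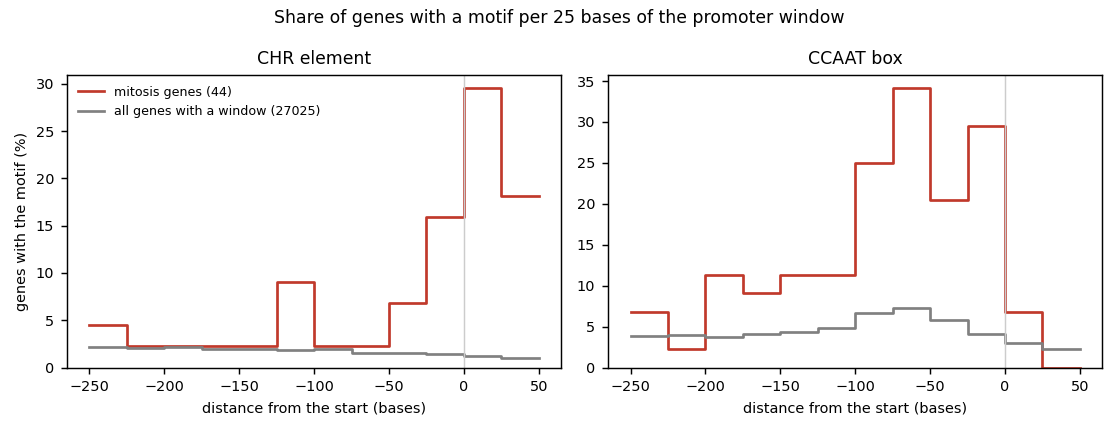
Share of genes (percent) whose promoter window holds TTTGAA or CCAAT on either strand, in steps of 25 bases from the annotated start, for the 44 mitosis genes with a RefSeq window and for all 27025 genes with one. TTTGAA is most frequent in the first 25 bases after the start (29.5% of the mitosis genes, against 1.25% of all genes) and CCAAT between 75 and 50 bases before it (34.1%, against 7.28%).

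Levels are given as CPM, each gene's count scaled to a common library total with TMM factors. Library totals were 31.8 to 53.8 M counts in treated mice and 2.54 to 33.2 M in control mice, with the lowest in control TFR (4.85 to 9.62 M) and control TFH (2.54 to 15.2 M). Mitochondrial genes took 1.85 to 3.17% of the counts in treated libraries and 9.50 to 16.9% in control libraries, so this share moved with treatment in every subset. Transcripts of kidney podocytes (6 markers) stood out in 5 libraries, with summed CPM of 1230 for TFH 3, 467 for TFR 1 and 132 for Treg 3 of the treated mice, and 1027 and 1007 for Tconv 1 and 2 of the control mice. Foxp3 followed the gates, and averaged 549, 561, 50.8 and 11.9 CPM in treated Treg, TFR, TFH and Tconv cells, and 473, 354, 47.3 and 5.81 CPM in the control ones. Within each treatment the PD-1 gene Pdcd1 followed the PD1Hi gates as well. It was at 126 to 151 CPM in treated TFH and TFR cells and 65.0 to 76.9 CPM in treated Treg cells. In control mice it was at 270 to 414 CPM in TFH and TFR cells and 201 to 241 CPM in Treg cells. Ikzf2, a regulatory T cell marker, was not confined to the Treg and TFR gates. It was at 343 to 414 CPM in treated TFH cells and 45.4 to 54.7 CPM in treated Tconv cells. GITR is also induced on activated conventional T cells, and the Treg and TFR gates used GITR and not Foxp3. Whether the 3 libraries of a group are separate mice is not stated in the labels. The p-values therefore rest on the spread between these libraries, which may be technical. That spread was estimated jointly over all 8 groups, so a call between 2 groups also depends on the libraries of the others. Treatment and the handling of its samples cannot be told apart.

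All 52 genes passed the filter on low counts, and each was detected in every treated library. In control TFH libraries 1, 2 and 3, 13, 22 and 7 of the 52 had no read, against at most 1 in any other library. The spread between libraries differed likewise: the median coefficient of variation of the 52 genes was 0.149 in treated TFH and 0.879 in control TFH, 0.0793 in treated TFR and 0.307 in control TFR, 0.0561 in treated Treg and 0.227 in control Treg, and 0.109 in treated Tconv and 0.217 in control Tconv. When all libraries were thinned to the smallest total, 1 to 5 of the 52 genes were at 0 in treated TFH and 11 to 22 in control TFH, while none or 1 was at 0 in treated and control TFR libraries. Thinned Treg libraries had 0 to 3 at 0 in treated and 5 to 7 in control mice, and thinned Tconv libraries 4 to 9 and 8 to 15. Over all genes, thinned libraries detected 16064 to 17874 genes in treated TFH and 10271 to 12691 in control TFH. They detected 15606 to 17311 genes in treated TFR and 11639 to 12519 in control TFR. The part of this lower detection in the mitosis genes at 0 was not tested.

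**Figure D2:**
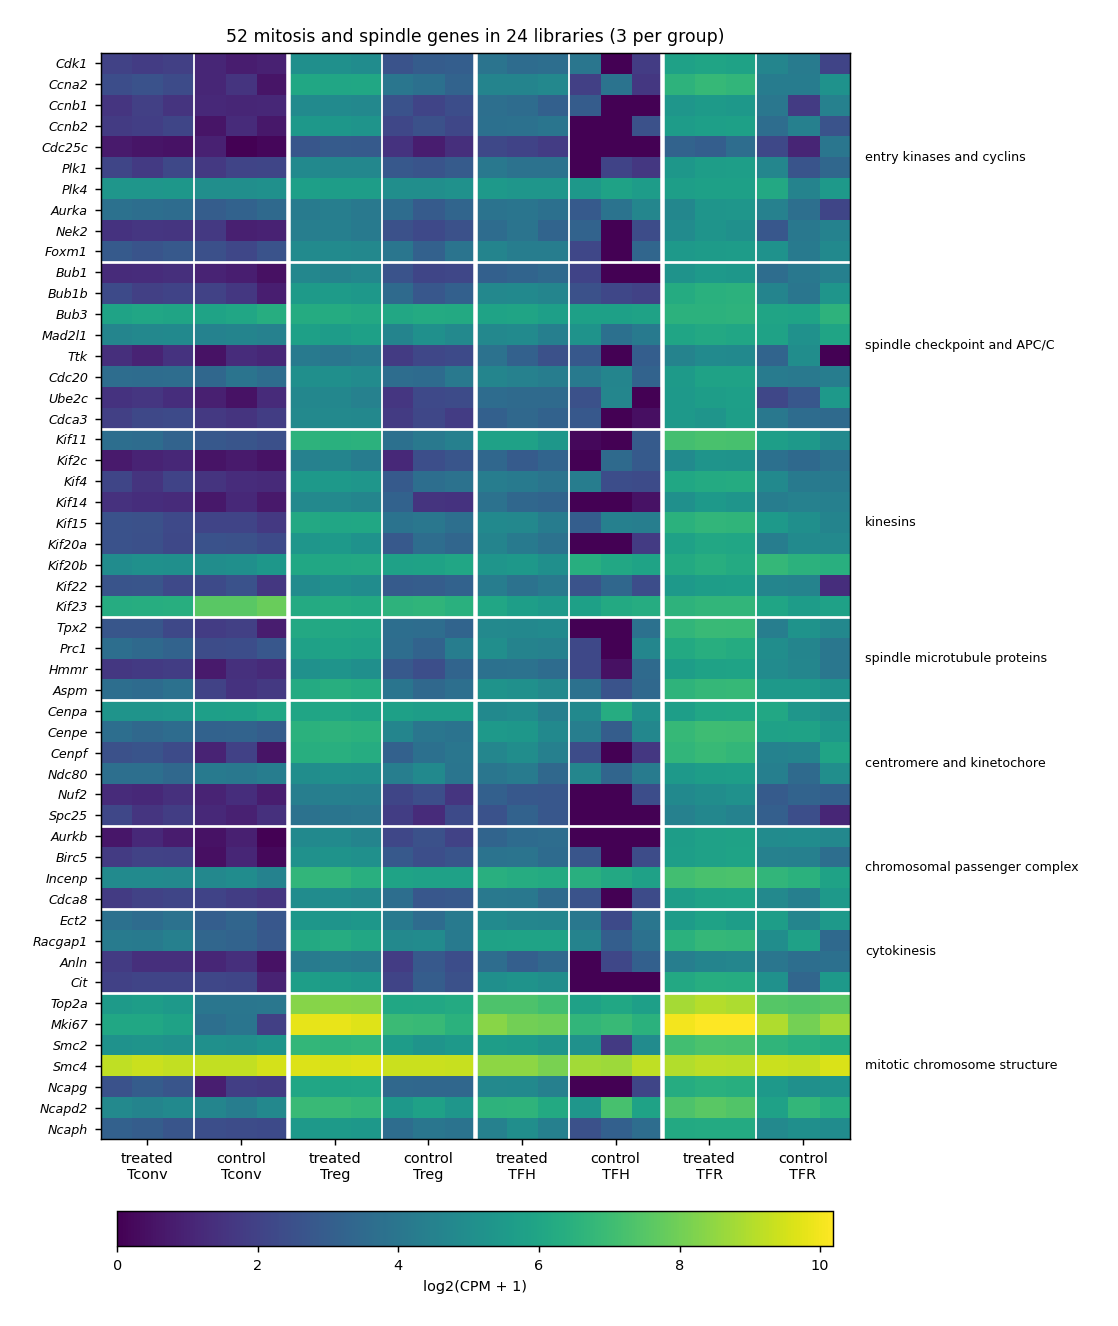
Level of each of the 52 genes, as log2(CPM + 1), in the 24 libraries, with the treated libraries left of the control libraries in each subset and genes ordered by role. Treated Treg and TFR libraries are the brightest across nearly all roles, and empty cells gather in the 3 control TFH libraries.

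The summed level of the 52 genes was 4297 ± 114 CPM in treated Treg and 1655 ± 25.9 CPM in control Treg libraries (SD, n = 3 each, as for the sums that follow). It was 5558 ± 378 CPM in treated TFR and 2778 ± 261 CPM in control TFR, 1965 ± 213 CPM in treated TFH and 1355 ± 78.7 CPM in control TFH, and 1302 ± 43.2 CPM in treated Tconv and 1304 ± 112 CPM in control Tconv. The condensin gene Smc4 alone supplied much of these sums, 47.6% in treated Tconv and 49.7% in control Tconv but 9.95% in treated TFR and 24.8% in control TFR. Without Smc4 the sum was 3503 ± 127 CPM in treated and 1005 ± 18.5 CPM in control Treg, 1636 ± 173 and 875 ± 34.9 CPM in treated and control TFH, and 682 ± 6.86 and 655 ± 34.7 CPM in treated and control Tconv cells. These Tconv sums include Kif23, at 78.8 to 83.7 CPM in treated and 188 to 232 CPM in control libraries. The median log2 fold change of the 52 genes in Tconv cells was 0.67, so the near-equal sums do not describe most genes. Per kilobase of transcript, Smc4 was first among the 52 in every group (119 CPM per kb in treated and 125 in control Tconv) except treated TFR, where Mki67 averaged 111 ± 7.19 and Smc4 106 ± 5.92 CPM per kb.

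**Figure D3:**
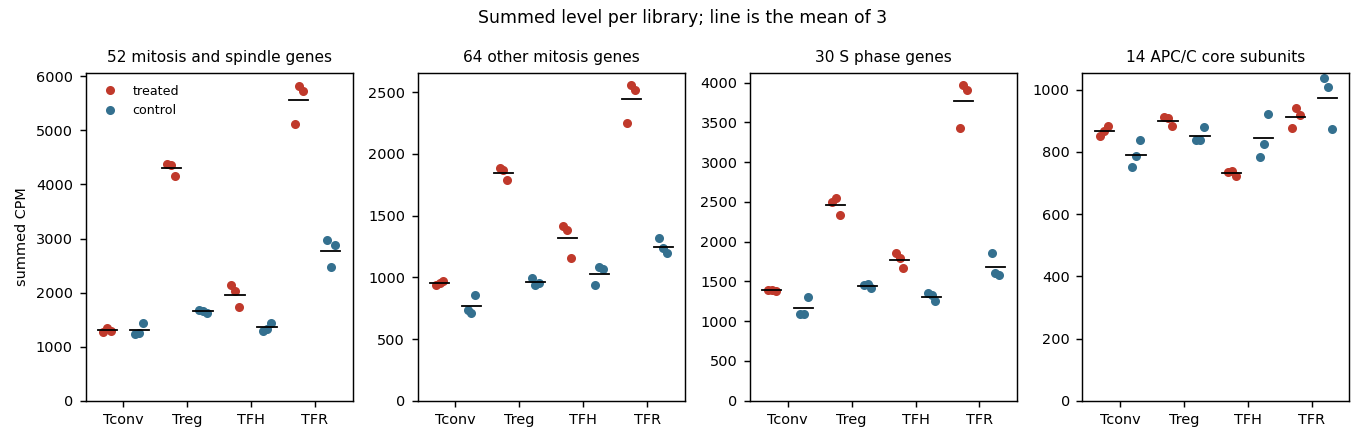
Summed CPM per library of the 52 mitosis genes, of 64 other mitosis genes, of 30 S phase genes and of 14 APC/C core subunits, with treated left of control in each subset, points for libraries and lines for the mean of 3. The mitosis genes separate treated from control most in Treg and TFR cells, and the APC/C subunits stay between 721 and 1037 CPM in all libraries.

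More mitosis genes were called higher than lower in treated mice in all 4 subsets, as were more of all genes. The median difference of the mitosis genes was largest in Treg cells. In treated against control Treg cells 37 of the 52 were higher and none was lower (5.05% of all 18789 genes tested were higher and 3.53% lower), with a median log2 fold change of 2.20, against 0.09 over all genes. In TFR cells 24 were higher and none was lower (15.5% and 6.4% of all genes), with a median of 1.35, against 0.40 over all genes. In TFH cells 26 were higher and 3 lower (16.3% and 5.85% of all genes), with a median of 1.39, against 0.42. In Tconv cells 6 were higher and 1 lower (11.5% and 1.92%, against 6.9% and 3.07% of all genes), shares near those of all genes. The median there was 0.67, against 0.02. A call here is an adjusted p under 0.05 in edgeR's quasi-likelihood test. Counting genes whose 3 treated libraries all lay above all 3 control libraries gave 50 in Treg (27.4% of all genes), 43 in TFR (33%), 32 in TFH (28.5%) and 30 in Tconv cells (27.5%). All 3 treated libraries lay below all 3 control libraries for 1 gene in Treg, 2 in TFR, 2 in TFH and 3 in Tconv cells. With every library thinned to the smallest, 9 genes were called in Treg, 8 in TFH and 1 in TFR cells, and limma with quality weights called 38 in TFR, 19 in TFH and 23 in Tconv cells. Without control Treg 2 or control Treg 3 the Treg count was 24 or 23, and the Tconv count was 4 without control Tconv 1 or 3 and 11 without control TFH 1 or 3.

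Of the 52 genes, 6 were higher in all 4 subsets: Ccna2 (cyclin A), Aspm (a spindle pole protein), Birc5 (survivin), Racgap1 (centralspindlin), Top2a (topoisomerase II alpha, which untangles sister chromatids) and Mki67 (the chromosome surface protein Ki-67). A further 9 were higher in 3 subsets, 15 in 2 and 11 in 1, and Kif23 was lower in Tconv and higher in TFR cells. The genes called in no subset were Ccnb1, Plk4, Nek2, Bub3, Ttk, Ube2c and Anln, and Kif20b, Cenpa and Smc4 were called only as lower, each in TFH cells. Calls lost in at least 17 of 34 alternatives were those of Cdk1, Kif2c, Mad2l1, Nuf2 and Prc1 in Treg, Birc5 and Ccnb2 in TFR, Cdca3 and Cenpa in TFH and Racgap1 in Tconv cells. With RLE in place of TMM factors Kif20b and Smc4 were called lower in TFR cells and Kif23 in TFH cells as well. DESeq2 called the same 3 lower (adjusted p 0.00955, 0.0043 and 0.00964). Smc4 in TFR cells was also called lower without the filter on low counts (0.0474) and with only the libraries compared (0.0422). With only the libraries compared it was called lower in Tconv cells too (0.0449). Cenpa and Ndc80, not called in Tconv cells in the fit over all libraries, were called lower there with only the libraries compared (0.000184 and 0.00191). Limma with quality weights also called both lower there (4.23e-05 and 0.00687). Cenpa was at 37.9 to 40.04 CPM in treated and 52.4 to 64.7 CPM in control Tconv libraries. Ndc80 was at 9.97 to 12.1 CPM in treated and 15.8 to 18.7 CPM in control ones, also without overlap. Some genes on marker lists of other cells moved with treatment as well. The B cell list (7 genes) summed to 22.2 to 25.7 CPM in treated TFH and 58.8 to 90.4 CPM in control TFH libraries. In TFR libraries it summed to 15.1 to 15.6 CPM in treated and 4.55 to 6.97 CPM in control mice. Eomes carried nearly all of the CD8 and NK cell list (5 genes), which summed to 443 to 601 CPM in treated and 38.5 to 46.7 CPM in control TFH cells, while Cd8a and Ncr1 had no read in either. Klrb1c and Cd8b1 reached at most 1.99 and 3.95 CPM in TFH libraries. Eomes was higher in treated libraries of the other subsets too, at 64.4 to 70.3 CPM in treated and 7.63 to 9.16 CPM in control Tconv cells. Jchain, a plasma cell marker, was at 147 to 201 CPM in treated TFH and 13.9 to 26.3 CPM in control TFH, and at 104 to 114 CPM in treated TFR and 2.81 to 7.01 CPM in control TFR. The plasma cell list (5 genes) did not move as a whole. Prdm1 was higher in treated TFH and TFR libraries, without overlap. Xbp1 was lower in TFH cells (97.6 to 106 CPM in treated, 124 to 136 CPM in control) and overlapped in TFR cells. Sdc1 and Derl3 overlapped between treated and control libraries in both subsets. Which cells carried these transcripts, and the part of other cells in the mitosis genes, was not tested. With the mitochondrial, antigen receptor segment and haemoglobin genes left out of the counts, 38, 29, 28 and 6 mitosis genes were called in Treg, TFR, TFH and Tconv cells.

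**Figure D4:**
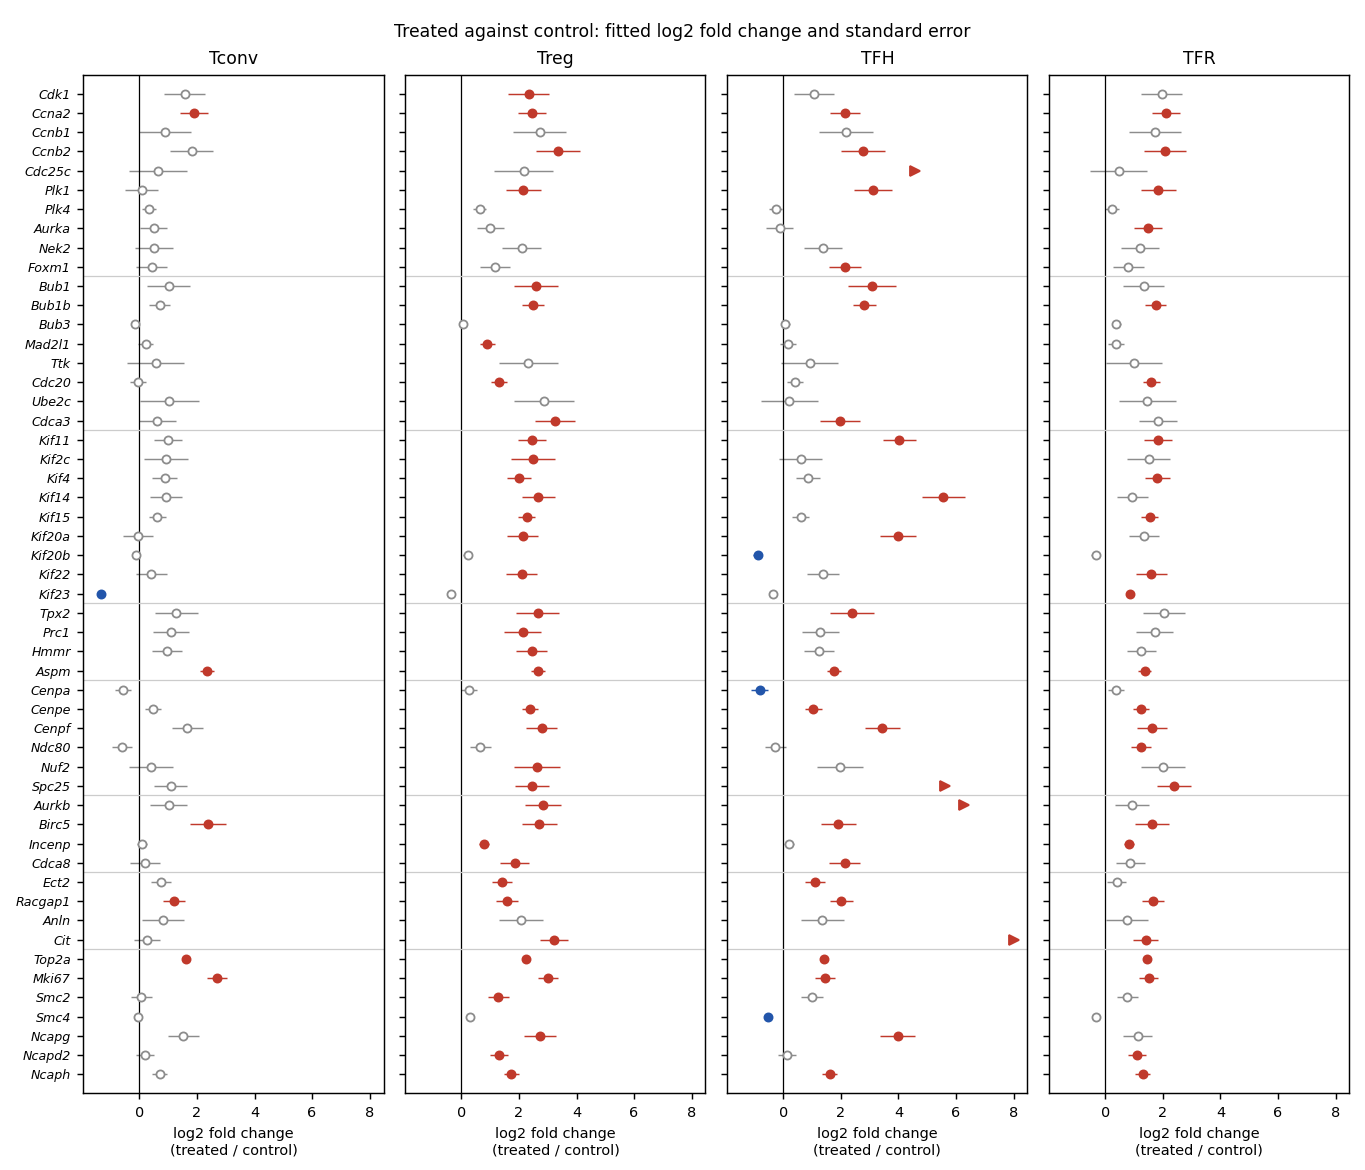
Log2 fold change of each of the 52 genes in treated against control mice, 1 panel per subset, with bars of 1 standard error from the edgeR fit. Filled red points were called higher, filled blue points lower and open points were not called, and arrows mark lower bounds for the 4 genes without a read in control TFH cells. Nearly every Treg point lies right of 0, and Tconv has 7 filled points.

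Among the 7 genes of mitotic chromosome structure, 6 were higher in treated Treg, 4 in TFR, 4 in TFH (with Smc4 lower) and 2 in Tconv cells. Top2a was at 326, 327 and 319 CPM in treated Treg libraries, against 66.2, 67.2 and 73.4 CPM in control ones. It was at 451, 531 and 489.8 CPM in treated TFR, against 180.2, 169 and 185 CPM in control TFR. It was at 159.8, 159.7 and 136 CPM in treated TFH, against 55.5, 66.1 and 52.9 CPM in control TFH, and at 45.7, 49.6 and 44.2 CPM in treated Tconv, against 14.9, 15.2 and 15.6 CPM in control Tconv. No treated library overlapped a control library of its subset, and libraries of a group lay close together. The log2 fold change of Top2a was 2.23 ± 0.10 in Treg (SE; adjusted p 3.33e-13), 1.61 ± 0.10 in Tconv (7.14e-11), 1.46 ± 0.10 in TFR (1.94e-10) and 1.39 ± 0.10 in TFH cells (6.12e-10). Mki67 was at 907, 915 and 829 CPM in treated Treg, against 121, 115 and 90.1 CPM in control Treg. In treated Tconv cells Mki67 was at 65.5, 66.3 and 58.1 CPM, against 12.1, 14.7 and 2.82 CPM in control Tconv. The groups were apart in both subsets, with the lowest value in the control Tconv library that held few podocyte transcripts. Mki67 rose by 3.02 ± 0.35 on the log2 scale in Treg (adjusted p 5.11e-06), by 2.69 ± 0.35 in Tconv (2.12e-05), by 1.5 ± 0.33 in TFR (0.00266) and by 1.45 ± 0.34 in TFH cells (0.00445). The condensin subunits divided: Ncaph, of condensin I, rose in Treg (1.72 ± 0.26), TFH (1.61 ± 0.27) and TFR cells (1.29 ± 0.26), whereas Smc4, shared by condensin I and II, fell in TFH cells. Smc4 was at 353, 353 and 280.3 CPM in treated TFH, against 439, 413 and 587 CPM in control TFH (log2 fold change -0.55 ± 0.12, adjusted p 0.00217). The Smc4 groups did not overlap, and the lowest treated value was in the TFH library with podocyte transcripts.

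**Figure D5:**
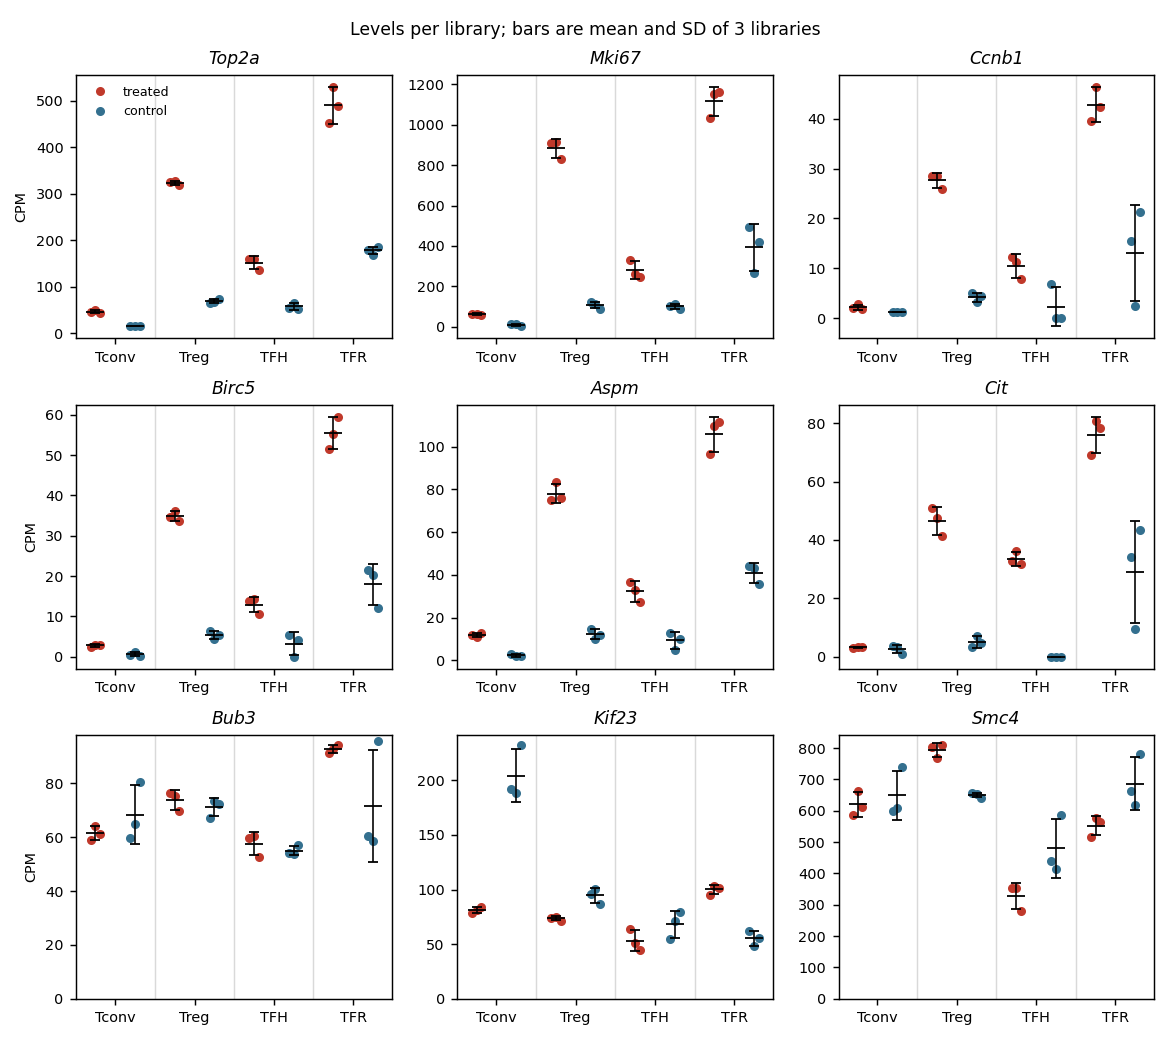
CPM of 9 of the genes in each of the 24 libraries, treated left of control in each subset, with points for libraries and bars for the mean and SD of 3. Top2a, Mki67, Ccnb1, Birc5, Aspm and Cit are highest in treated TFR and Treg cells, Bub3 lies between 52.6 and 95.7 CPM in all libraries, Kif23 is highest in control Tconv, and Smc4 is highest in treated Treg cells.

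Of the 10 kinases, cyclins and regulators of mitotic entry, 4 were higher in treated Treg, 4 in TFR, 5 in TFH and 1 in Tconv cells. Ccna2 was at 66.4, 64.9 and 65.7 CPM in treated Treg, against 15.03, 12.6 and 8.39 CPM in control Treg. It was at 4.26, 4.92 and 4.07 CPM in treated Tconv, against 1.11, 1.93 and 0.507 CPM in control Tconv. Both pairs of groups were apart, with every Treg library above every Tconv library. Its log2 fold change was 2.45 ± 0.47 in Treg (adjusted p 0.00122), 2.14 ± 0.51 in TFH (0.00429), 2.11 ± 0.47 in TFR (0.00244) and 1.90 ± 0.49 in Tconv (0.0133), and the Tconv call was lost without control Tconv 1 or 3, and the TFH value was 3.34 without control TFH 2. Cdk1, the mitotic kinase, was at 32.9, 33.7 and 29.7 CPM in treated Treg, against 5.17, 6.72 and 7.19 CPM in control Treg, without overlap. Its log2 fold change of 2.33 ± 0.71 in Treg was called (adjusted p 0.0435), but the call was lost in 19 of 34 alternatives, over which the adjusted p ran from 4.89e-07 to 0.329. That of 1.95 ± 0.71 in TFR was not (0.051), nor those of 1.57 ± 0.72 in Tconv and 1.06 ± 0.70 in TFH, where control TFH library 1 at 14.8 CPM exceeded the 14.1, 11.2 and 11.7 CPM of the treated ones. Plk1, the polo-like kinase, was at 16.04, 13.3 and 13.4 CPM in treated TFH, against 0, 3.09 and 2.11 CPM in control TFH. In Tconv cells Plk1 was at 3.43, 2.28 and 3.56 CPM in treated libraries, against 2.19, 3.28 and 3.36 CPM in control libraries, which overlap. Its log2 fold change was 3.11 ± 0.67 in TFH (adjusted p 0.00203), 2.15 ± 0.61 in Treg (0.0269), 1.84 ± 0.60 in TFR (0.0317) and 0.07 ± 0.59 in Tconv, and over 34 alternatives the Treg call was lost in 8 (adjusted p up to 0.746) and the TFR call in 9 (up to 0.459). Foxm1, the transcription factor that activates genes of the G2 and M phases, rose in TFH cells (2.13 ± 0.56, adjusted p 0.00942; 3.33 without control TFH 3) and had log2 fold changes of 1.17 in Treg, 0.80 in TFR and 0.42 in Tconv cells that were not called. Ccnb1, cyclin B1, was at 28.5, 28.5 and 25.9 CPM in treated Treg, against 4.95, 3.23 and 4.34 CPM in control Treg, a log2 fold change of 2.73 ± 0.92 that did not pass (adjusted p 0.074), although the groups were apart.

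Of the 8 spindle checkpoint and APC/C genes, 5 were higher in treated Treg, 3 in TFH, 2 in TFR and none in Tconv cells. Bub1b, the checkpoint protein BubR1, was at 46.4, 46.7 and 41.9 CPM in treated Treg, against 10.4, 5.81 and 7.77 CPM in control Treg. In TFH cells it was at 26.1, 27.7 and 23.8 CPM in treated libraries, against 4.69, 3.48 and 3.00 CPM in control libraries. The groups were apart in both. Its log2 fold change was 2.81 ± 0.40 in TFH (adjusted p 2.16e-05), 2.49 ± 0.37 in Treg (6.37e-05) and 1.75 ± 0.36 in TFR (0.00124), and 0.71 ± 0.37 in Tconv was not called. Cdc20, the activator of the APC/C in mitosis, rose by 1.60 ± 0.29 in TFR (adjusted p 0.00031) and by 1.30 ± 0.28 in Treg cells (0.00377). Bub3, which BubR1 binds and which is also present outside mitosis, differed little between treated and control cells. It was at 76.4, 75.4 and 69.7 CPM in treated Treg, against 67.3, 73.4 and 72.5 CPM in control Treg, and the groups overlapped. Its log2 fold change lay between -0.15 ± 0.15 in Tconv and 0.38 ± 0.15 in TFR cells and was called in no subset. With only the libraries compared in the fit, Bub3 was called lower in Tconv cells (-0.31, adjusted p 0.0288), where the groups overlapped.

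Of the 9 kinesin genes, 7 were higher in treated Treg, 5 in TFR, 3 in TFH (with Kif20b lower) and none in Tconv cells (with Kif23 lower). Kif11, the motor that pushes the spindle poles apart, was at 94.4, 87.5 and 91.2 CPM in treated Treg, against 12.7, 16.3 and 20.6 CPM in control Treg. It was at 55.5, 56.4 and 41.0 CPM in treated TFH, against 0.174, 0 and 6.67 CPM in control TFH. No library of one group reached the other, and Kif11 rose by 4.03 ± 0.57 in TFH (adjusted p 2.67e-05), by 2.46 ± 0.49 in Treg (0.00192) and by 1.83 ± 0.48 on the log2 scale in TFR cells (0.00928). The 3 control TFH libraries held 1, 0 and 98 Kif11 reads, and without library 3 the fitted TFH value was 8.69, while with only the TFH libraries in the fit the call was lost (adjusted p 0.0619). Kif15, another motor of the bipolar spindle, was at 69.9, 63.5 and 66.6 CPM in treated Treg, against 13.8, 15.4 and 12.2 CPM in control Treg, again without overlap (2.27 ± 0.30, adjusted p 1.29e-05). Kif14, a motor of cytokinesis, was at 13.3, 9.69 and 8.62 CPM in treated TFH, against 0, 0 and 0.408 CPM in control TFH, where 6 reads in all were counted (5.56 ± 0.74, adjusted p 1.1e-05), all of them in library 3, without which the fitted value was 11.3. Kif23, the motor subunit of centralspindlin at the midbody, ran the other way in Tconv cells. It was at 78.8, 81.0 and 83.7 CPM in treated Tconv, against 192, 188 and 232 CPM in control Tconv, where the highest value was in the library with few podocyte transcripts. In TFR cells Kif23 was at 95.3, 104 and 102 CPM in treated libraries, against 62.4, 48.4 and 55.7 CPM in control libraries. The groups were apart in both subsets, in opposite directions: the log2 fold change was -1.33 ± 0.14 in Tconv (adjusted p 4.54e-07) and 0.85 ± 0.14 in TFR (0.000143). In Treg cells Kif23 was at 74.2, 75.2 and 71.6 CPM in treated libraries, against 96.1, 100.7 and 87.2 CPM in control libraries, also apart. That difference (-0.36 on the log2 scale) was not called, but was called lower with only the libraries compared (adjusted p 0.000679), by limma with quality weights (0.000315) and by DESeq2 (0.0333). Kif20b was at 39.0, 41.7 and 32.4 CPM in treated TFH, against 83.6, 68.8 and 58.5 CPM in control TFH, without overlap, and fell by 0.90 on the log2 scale (SE 0.15, adjusted p 0.000174).

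The 4 spindle microtubule genes were all higher in treated Treg cells, 2 in TFH, 1 in TFR and 1 in Tconv cells. Aspm, which gathers microtubules at the spindle poles, was at 74.9, 83.2 and 75.8 CPM in treated Treg, against 14.7, 9.99 and 12.03 CPM in control Treg. In Tconv cells it was at 11.7, 10.9 and 12.8 CPM in treated libraries, against 2.98, 1.82 and 2.22 CPM in control libraries. The groups were apart in both, and Aspm rose by 2.67 ± 0.24 in Treg (adjusted p 7.04e-08), 2.34 ± 0.25 in Tconv (4.39e-07), 1.75 ± 0.25 in TFH (2.03e-05) and 1.36 ± 0.23 on the log2 scale in TFR cells (0.000192). Tpx2, which activates Aurora A on the spindle, rose in Treg (2.65 ± 0.75, adjusted p 0.029) and TFH cells (2.38 ± 0.76, adjusted p 0.0302). Its Treg call was lost in 10 of 33 alternatives (adjusted p up to 0.259) and its TFH call in 7 (up to 0.41), and without control TFH 3 its fitted TFH value was 12.7. Prc1, the bundler of midzone microtubules, and Hmmr, a spindle assembly factor, rose in Treg cells (2.13 ± 0.64 and 2.44 ± 0.53), and the Prc1 call was lost in 18 of 34 alternatives, over which the adjusted p ran from 1.41e-07 to 0.89.

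Of the 6 centromere and kinetochore genes, 4 were higher in treated Treg, 4 in TFR, 3 in TFH (with Cenpa lower) and none in Tconv cells. Cenpe, the kinesin that carries chromosomes to the spindle equator, was at 89.0, 94.8 and 91.0 CPM in treated Treg, against 23.97, 15.1 and 13.6 CPM in control Treg. It was at 11.8, 9.76 and 11.2 CPM in treated Tconv, against 8.23, 8.46 and 7.04 CPM in control Tconv. The groups were apart in both, with a log2 fold change of 2.38 ± 0.29 in Treg (adjusted p 4.78e-06) and of 0.47 in Tconv, which was not called. It rose by 1.24 ± 0.28 in TFR (adjusted p 0.00274) and by 1.05 ± 0.29 in TFH cells (0.0122), the last lost without treated TFH 1. Spc25, a subunit of the NDC80 complex that grips microtubules, was at 4.98, 8.09 and 5.88 CPM in treated TFH libraries, against 0 in the 3 control TFH libraries. Taking 3 reads over the 3 control libraries as the floor, it was at least 48.5-fold higher in treated TFH cells. This bound and those given below for other genes cover counting error only, not the lower detection of genes in control TFH libraries. Cenpa, the centromeric histone, was at 27.5, 29.9 and 19.9 CPM in treated TFH, against 27.5, 78.8 and 33.2 CPM in control TFH. Its lower level in treated TFH cells (-0.82 ± 0.29, adjusted p 0.0444) goes with 1 control library far above the others, and the groups overlap. The call was lost in 25 of 34 alternatives, over which the adjusted p ran from 0.00879 to 0.598.

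The 4 genes of the chromosomal passenger complex, which corrects faulty attachments, were all higher in treated Treg cells, 3 in TFH, 2 in TFR and 1 in Tconv cells. Birc5 was at 34.6, 36.2 and 33.7 CPM in treated Treg, against 6.27, 4.47 and 5.25 CPM in control Treg. In Tconv cells it was at 2.39, 3.00 and 2.92 CPM in treated libraries, against 0.318, 1.11 and 0.158 CPM in control libraries. The groups were apart in both, and Birc5 rose by 2.71 ± 0.60 in Treg (adjusted p 0.00457), 2.39 ± 0.63 in Tconv (0.0147), 1.90 ± 0.60 in TFH (0.0277) and 1.63 ± 0.58 on the log2 scale in TFR cells (0.0484). The Tconv call of Birc5 was lost without control Tconv 1 or 3, its TFH call without treated TFH 1 or 2, and its TFR call was lost in 22 of 34 alternatives, over which the adjusted p ran from 0.000539 to 0.669. Aurkb, the kinase of the complex, had no read in the 3 control TFH libraries and was at least 78.3-fold higher in treated TFH cells. It also rose in Treg cells (2.82 ± 0.62, adjusted p 0.00494). Incenp, its scaffold, rose by 0.80 ± 0.17 in Treg (adjusted p 0.00379) and 0.82 ± 0.17 in TFR cells (0.00156), and its log2 fold changes in TFH (0.18) and Tconv cells (0.10) were not called.

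Of the 4 cytokinesis genes, 3 were higher in treated Treg, 3 in TFH, 2 in TFR and 1 in Tconv cells. Cit, citron kinase, which acts at the midbody, was at 32.7, 36.3 and 31.7 CPM in treated TFH, against 0 in all 3 control TFH libraries, and was thus at least 258-fold higher. In Treg cells Cit was at 50.8, 47.6 and 41.3 CPM in treated libraries, against 3.26, 7.01 and 4.71 CPM in control libraries. In Tconv cells it was at 2.87, 3.23 and 3.29 CPM in treated libraries, against 3.498, 3.39 and 0.951 CPM in control libraries, which overlap. Its log2 fold change was 3.22 ± 0.47 in Treg (adjusted p 8.82e-05), 1.40 ± 0.44 in TFR (0.0292) and 0.26 in Tconv, where it was not called, and the TFR call was lost without treated TFR 2 or 3 or control TFR 2. Racgap1, the partner of Kif23 in centralspindlin, was at 17.7, 17.1 and 20.4 CPM in treated Tconv, against 9.38, 8.35 and 6.18 CPM in control Tconv. Those groups were apart, whereas in the same cells Kif23 was lower after treatment. Racgap1 rose by 2.01 ± 0.40 in TFH (adjusted p 0.000947), 1.65 ± 0.38 in TFR (0.00346), 1.57 ± 0.38 in Treg (0.00932) and 1.21 ± 0.38 on the log2 scale in Tconv cells (0.0473), the last lost in 25 of 34 alternatives, over which the adjusted p ran from 0.000338 to 0.65. The Treg call of Racgap1 was lost without control Treg 3. Cdc25c, the phosphatase that activates Cdk1, was the fourth gene without a read in control TFH cells and was at least 23.6-fold higher in treated ones.

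The 4 subsets took the same order for most genes in treated mice. The means ran TFR, Treg, TFH, Tconv from high to low for 47 of the 52 genes, and for 42 of these the libraries of all neighbouring subsets did not overlap. The exceptions were Bub3 and Mad2l1, with TFH below Tconv, and Kif23, Cenpa and Smc4. In control mice the same order held for 24 genes, with all neighbours apart for 2, and 16 genes ran TFR, Treg, Tconv, TFH. TFR cells had the highest mean for 47 genes in control mice, Plk4, Aurka and Ncapd2 were highest in TFH, and Kif23 and Cenpa in Tconv cells.

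In treated mice 46 of the 52 genes were higher in Treg than in Tconv cells and none was lower (6.32% and 5.53% of all genes), with a median log2 fold change of 3.15, against 0.01 over all genes. The 6 that were not called were Plk4, Aurka, Bub3, Kif23, Cenpa and Smc4. In control mice 23 were higher in Treg cells and 1, Kif23, was lower (5.9% and 3.34% of all genes), with a median of 1.63, against -0.06. Mki67 was higher in Treg than in Tconv cells by 3.80 ± 0.36 in treated mice (adjusted p 1.92e-07) and by 3.47 ± 0.36 in control mice (1.1e-06), and Top2a by 2.80 ± 0.10 (5.22e-15) and 2.18 ± 0.10 (2.32e-13). Kif15 differed by 3.89 ± 0.32 in treated and 2.25 ± 0.31 in control mice. Kif23 was lower in control Treg than in control Tconv cells (-1.11 ± 0.14, adjusted p 5.58e-06), and its difference in treated mice was -0.14 ± 0.14. Without the libraries that held podocyte transcripts, which include control Tconv 1 and 2, 13 genes were called between control Treg and control Tconv cells.

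TFH cells were higher than Tconv cells for 34 genes and lower for Kif23 and Smc4 in treated mice (10.3% and 7.71% of all genes), with a median log2 fold change of 2.14, against 0.14. In control mice 16 were higher and 6 lower (9.82% and 14.9% of all genes), with a median of 0.80, against -0.31. The 6 lower genes were Kif20a, Kif23, Spc25, Aurkb, Cit and Smc4, of which Spc25, Aurkb and Cit had no read in control TFH cells. Mki67 differed by 2.14 ± 0.34 in treated mice (adjusted p 9.94e-05) and 3.38 ± 0.37 in control mice (1e-06). Kif23 differed by -0.61 ± 0.14 in treated mice (adjusted p 0.0031) and -1.58 ± 0.14 in control mice (2.39e-08).

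TFR cells were higher than TFH cells for 32 genes and lower for none in treated mice (4.63% and 4.96% of all genes), with a median log2 fold change of 1.72, against -0.13. All 52 genes had every treated TFR library above every treated TFH library (21% of all genes). In control mice 32 were higher and none was lower (7.82% and 7.92% of all genes), with a median of 1.84, against 0.00. Mki67 differed by 2.00 ± 0.33 in treated mice (adjusted p 0.000402) and 1.95 ± 0.34 in control mice (0.00104), and Top2a by 1.69 ± 0.10 (1.15e-10) and 1.63 ± 0.10 (1.98e-09). Bub3, which no treatment comparison called in the fit over all libraries, was higher in treated TFR than in treated TFH cells (0.69 ± 0.15, adjusted p 0.00349). Without treated TFH 1 or 2 the count in treated mice was 21.

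In treated mice Top2a (0.60 ± 0.09, adjusted p 0.000279) and Incenp (0.60 ± 0.17, with an adjusted p just under the threshold, a call lost in 23 of 34 alternatives over which it ran from 3.03e-09 to 0.406) were higher in TFR and Smc4 was lower (-0.52 ± 0.12, adjusted p 0.00955), so that 2 were higher and 1 lower (1.8% and 2.82% of all genes). Yet 48 genes had every treated TFR library above every treated Treg library (24.7% of all genes), with a median log2 fold change of 0.63, against 0.12. With only the 6 treated TFR and Treg libraries in the fit, 48 genes were called. In control mice 18 were higher in TFR and Kif23 was lower (2.25% and 7.37% of all genes), with a median of 1.33, against -0.10. Mki67 differed by 0.34 ± 0.32 in treated mice, which was not called, and by 1.85 ± 0.33 in control mice (adjusted p 0.00151). The count in control mice was 11 without control Treg 2 and 29 without control TFH 1 or 2.

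The treatment effects themselves were compared between subsets, in contrasts that share the treated and control libraries of the comparisons above. The log2 fold change was higher in Treg than in Tconv cells for 5 genes, Kif15, Kif23, Cenpe, Cit and Top2a, and lower for none (0.745% and 1.78% of all genes), with a median difference of 1.26 on the log2 scale, against -0.02. For Kif23 it was less negative in Treg cells (-0.36) than in Tconv cells (-1.33). Mki67 was not among the 5 (0.33 ± 0.47, adjusted p 0.909). Without the 4 libraries of highest podocyte level 2 genes were called, and 3 without control Tconv 1 or 2. Without all 5 such libraries edgeR called none of the 52, with 12 at an unadjusted p under 0.05, while DESeq2 on all libraries called 17. The log2 fold change was higher in TFH than in Tconv cells for 11 genes, Kif23 again by being less negative, and lower for Kif20b and Smc4 (13.5% and 5.08% of all genes), with a median difference of 0.56, against 0.34. Compared with TFH, the log2 fold change in TFR cells was higher for Kif23 (1.22 ± 0.20, adjusted p 0.000994) and lower for 7 genes (3.23% and 3.64% of all genes), 4 of them the genes without a read in control TFH cells. Compared with Treg, that in TFR cells was higher for Kif23 (1.22 ± 0.20, adjusted p 0.000675) and lower for Aspm (-1.31 ± 0.33, 0.0167), Top2a (-0.77 ± 0.13, 0.00102) and Smc4 (-0.60 ± 0.17, 0.031), against 5.08% and 2.27% of all genes.

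A further list of 64 mitosis genes outside the 52, chosen for their roles, gave 18 higher and none lower in treated Treg, 22 and none in TFR, 18 and 1 in TFH, and 6 and 1 in Tconv cells. The higher ones were 28.1%, 34.4%, 28.1% and 9.38% of the list, against 5.05%, 15.5%, 16.3% and 6.9% of all genes, so that the Tconv share lay near that of all genes. The median log2 fold changes were 1.51, 1.39, 0.78 and 0.40 in these 4 subsets. Nusap1, a spindle microtubule binder, was at 57.9, 56.0 and 51.6 CPM in treated Treg, against 9.13, 12.02 and 7.07 CPM in control Treg, without overlap (2.55 ± 0.49, adjusted p 0.00108). Cks2, a small Cdk-binding protein, rose in Tconv (1.03 ± 0.22), Treg (1.16 ± 0.22) and TFR cells (1.70 ± 0.23). Of 30 S phase genes, 12 were higher in treated Treg, 18 in TFR, 13 in TFH (with 2 lower) and 1 in Tconv cells (40%, 60%, 43.3% and 3.33%), the last below the 6.9% of all genes. That 1 was Pcna, the sliding clamp of replication, at 409, 412 and 400.4 CPM in treated Tconv, against 202, 199 and 243 CPM in control Tconv, without overlap (0.92 ± 0.11, adjusted p 2.93e-06). The 14 core subunits of the APC/C, which are present throughout the cycle, had medians between -0.04 and 0.22 in the 4 subsets. In TFH cells 3 of them were lower, Cdc27, Cdc16 and Anapc7 (21.4%, against 5.85% of all genes), and in TFR cells 3 were higher and Anapc1 was lower (-0.61 ± 0.14, adjusted p 0.00326), where 15.5% of all genes were higher and 6.4% lower. Over 34 alternatives in TFH cells the Anapc7 call was lost in 25 (adjusted p 0.00262 to 0.245), the Cdc16 call in 8 (0.000908 to 0.151) and the Cdc27 call in 3.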

How the data were processed

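Total RNA was measured in 24 libraries of 4 sorted CD4 T cell subsets, in 8 groups of 3 taken from the sample labels. Per the labels' protocols, RNeasy columns with DNase gave the RNA, RiboCop removed ribosomal RNA and a CORALL kit made the total RNA libraries. STAR, featureCounts and the mm10 genome were used, per the submitters' processing notes. Versions, the annotation release and the strand setting are not given in the sources used. The deposited table holds raw counts by Ensembl ID, which the authors did not normalize. IDs were matched to GENCODE M21 without their version suffix: 38872 matched, 184 did not, and 45 of the 52 mitosis genes had the same version. Transcript lengths are the union of exons in M21. Exons of 15 of the 52 genes overlap another annotated gene (12 antisense, Ccna2, Plk1, Cdc20 and Prc1 among them, and 3 on the same strand, Foxm1, Top2a and Ncapd2), so their counts are uncertain to that extent.

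The counts were modelled in edgeR 4.0.16 (R 4.3.3) with 8 group means over the 24 libraries and no covariates. Scaling used TMM factors, and 18789 genes passed filterByExpr. The quasi-likelihood F test (robust, two-sided) was adjusted by Benjamini-Hochberg over all genes tested, with a threshold of 0.05, in each of 16 comparisons (4 of treatment, 8 between subsets and 4 differences of treatment effects). Standard errors were derived from the log2 fold change and its F value. The common biological coefficient of variation was 0.617. A floor of 3 reads over a group gave the lower bounds, and these cover counting error only. Every pair of libraries within a group differed beyond sampling noise, with a chi-square over its degrees of freedom of at least 4.52, and all were kept apart. The steps were tested on simulated data.

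The mitosis genes, the other lists and the tests were chosen with earlier results of these data known. Genes named were Mki67, Top2a, Cdk1, Ccnb1, Plk1, Foxm1, Bub3 and Birc5, the member with the smallest p in each role per treatment comparison, the 4 with the smallest p in each other comparison, and members whose role group needed them. Alternatives were RLE factors, no filter, DESeq2 1.42.0, limma 3.58.1 with quality weights, a replicate block, only the libraries compared, thinning, gene and library exclusions and leaving out each library.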

Additional observations from a re-analysis of the deposited data

Results flagged for a closer look

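The differences of treatment effects between subsets passed the test for some mitosis genes, which is why they are listed here. They were 5 genes for Treg minus Tconv, 13 for TFH minus Tconv, 8 for TFR minus TFH and 4 for TFR minus Treg. In this order, 9.62%, 21.2%, 1.92% and 1.92% of the 52 genes were higher, against 0.745%, 13.5%, 3.23% and 5.08% of all genes. The lower ones were 0%, 3.85%, 13.5% and 5.77% of the 52, against 1.78%, 5.08%, 3.64% and 2.27% of all genes. For Treg minus Tconv the difference in log2 fold change was 0.97 for Kif23, 1.91 for Cenpe, 2.96 for Cit and 0.62 for Top2a. For TFR minus Treg it was 1.22 for Kif23, -1.31 for Aspm, -0.77 for Top2a and -0.60 for Smc4. For TFR minus TFH it was 1.22 for Kif23.

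Several of the differences involving TFH cells come from genes with few or no reads in control TFH libraries. For TFH minus Tconv the difference was 3.04 for Plk1 and 4.64 for Kif14. The fitted values for Spc25 (9.46), Aurkb (10.22) and Cit (12.68), and those for TFR minus TFH of Spc25 (-8.16), Aurkb (-10.30) and Cit (-11.55), depend on the prior count, since control TFH libraries had no read of these genes, and they are not sizes of effect. Groups of 3 libraries were not tested for single outlying libraries.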

How the results depend on the processing

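The smallest control TFH library holds 2.54 M reads, which limits these counts. Mitosis genes called in treated against control cells numbered 7 in Tconv, 37 in Treg, 29 in TFH and 24 in TFR. Leaving out each library in turn gave 4 to 11, 23 to 41, 24 to 36 and 17 to 35. Thinning gave 9 in Treg, 8 in TFH and 1 in TFR. Fits on only the libraries compared gave 16 in Tconv and 11 in TFH, limma with quality weights 23 in Tconv, 19 in TFH and 38 in TFR, and DESeq2 11 in Tconv. In treated mice, Treg against Tconv (46) had 38 to 48 without 1 library and 18 thinned. TFH against Tconv (36) had 25 to 40, and 8 thinned. TFR against TFH (32) had 21 to 42, 19 without the 4 podocyte-rich libraries, 15 without 5, 5 thinned, 52 on its own libraries and 51 by limma. TFR against Treg (3) had 1 to 5 (1 without treated TFR 1, 5 without control TFH 1 or 3), 1 without 5 libraries, 0 thinned (edgeR, 4 at an unadjusted p under 0.05), 48 on its own libraries, 49 by limma and 7 by DESeq2. In control mice, Treg against Tconv (24) had 18 to 31, 13 without 4 or 5 libraries, 6 thinned and 40 by limma. TFH against Tconv (22) had 20 to 28, 13 without 5 libraries, 10 thinned, 6 on its own libraries and 10 by limma. TFR against TFH (32) had 29 to 36, 10 thinned, 5 on its own libraries and 5 by limma. TFR against Treg (19) had 11 to 29, 1 thinned, 10 on its own libraries and 34 by DESeq2. The difference Treg minus Tconv (5) had 3 to 11, 2 without 4 libraries, 0 without 5 (edgeR, 12 at an unadjusted p under 0.05), 0 thinned (10 unadjusted), 34 on its own libraries, 37 by limma and 17 by DESeq2. TFH minus Tconv (13) had 10 to 17, 5 without 4 libraries, 4 without 5, 5 thinned and 5 on its own libraries. TFR minus TFH (8) had 5 to 16 (5 without treated TFH 1 or 2 or any 1 treated TFR library, 15 and 16 without control TFH 1 and 3), 4 without 5 libraries, 1 thinned, 3 on its own libraries, 0 by limma (11 unadjusted) and 13 by DESeq2. TFR minus Treg (4) had 2 to 7 (2 without treated Treg 2, control Treg 2 or treated TFR 1, 7 without control Tconv 3), 0 thinned (edgeR, 7 unadjusted), 15 on its own libraries, 9 by limma and 11 by DESeq2. The causes were not tested beyond what fewer reads or libraries imply by construction. Leaving out 5 libraries was chosen after seeing the data, and the 1 control Tconv library left is then assumed to vary like the other groups. Values that changed sign in Tconv were Ccnb1 (-1.67 thinned), Foxm1 (-0.79 thinned), Bub3 (0.088 thinned) and Plk1 (-0.028 with RLE factors, -0.029 with DESeq2, -0.11 without 4 or 5 libraries, -0.40 thinned, -0.085 on its own libraries and -0.10 to 0.25 without 1 library), and in TFH Bub3 (-0.13 thinned). DESeq2's scaling put the median of all genes at 0.00 in TFR, against 0.40 with TMM, with the mitosis genes at 1.28. Over 0.1 correlated 7 of 84 same-number pairs, among them all 3 of treated Treg with treated TFH (0.491, 0.451 and 0.766), groups not compared with each other here. In no 2 groups compared did all 3 pairs do so, and the lowest correlation was -0.786. All values beyond 0.1 in either direction lay among the groups that hold a library with podocyte transcripts. Whether same-number libraries share a mouse cannot be told from these values. The numbers were not taken to pair the libraries, and a replicate block called 7, 34, 28 and 23 genes in Tconv, Treg, TFH and TFR cells.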
